A study of Homo sapiens with 11 samples.

Results

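The comparison described here sets cells that received miR-99a and miR-100 together against cells that received either oligo alone, at an equal total amount of oligo. It holds the 9 treated arrays out of 11: 3 with miR-99a at 66 µM, 3 with miR-100 at 66 µM, and 3 with 33 µM of each. For every gene, the mean of the miR-99a and miR-100 arrays of a replicate number was subtracted from the combination array of that number, and the mean of the 3 differences is given as a log2 difference, positive where the combination was higher. The remaining 2 arrays, from cells given a scrambled control oligo at 66 µM, entered no difference and are quoted as a level only. All cells were Reh, a human line of B-precursor acute lymphoblastic leukaemia positive for the ETV6-RUNX1 fusion, and all of them carried a viral vector for stable miR-125b expression, also in the control. Oligos were given by Lipofectamine as microRNA precursors, again after 72 h, and RNA was taken 48 h after the second addition. The labels speak of incubation in triplicate and do not say whether the replicates were separate cultures. The p-values thus rest on a spread between these arrays that was pooled over genes and may be technical. The series concerns vincristine resistance, and vincristine was not part of the treatment stated for the arrays.

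A microRNA guides Argonaute proteins to messenger RNAs, which it recognises mainly through its seed near the 5′ end, and lowers their stability and translation. MiR-99a and miR-100 belong to one family, and MIR125B2 and MIR125B1 are encoded near them in the chromosome 21 and chromosome 11 clusters. Known family targets include the kinase MTOR, its partner RPTOR and the receptor IGF1R. The mature strands are shown because the comparison turns on how alike the oligos are. They are from RefSeq (GRCh38.p14), since the labels name the microRNAs and not the oligo sequences, and capitals mark the seed, bases 2 to 8.

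hsa-miR-99a-5p, chr21:16539101-16539122, plus strand: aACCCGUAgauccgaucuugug
hsa-miR-100-5p, chr11:122152275-122152296, minus strand: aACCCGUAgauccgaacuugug
hsa-miR-125b-5p, chr11:122099809-122099830, minus strand (also chr21:16590253-16590274, plus strand): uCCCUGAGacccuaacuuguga

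The mature miR-99a and miR-100 strands shared their seed and differed at 1 of 22 bases, U16A, counted from the 5′ end with the miR-99a base first. Cells of the combination therefore received the same seed in the same total amount as cells with a single oligo. The miR-125b seed is another one.

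Expression of 19775 genes was read from deposited log2 values, with 1 probe set per gene. The 36 pairs among the 9 arrays correlated at 0.9894 to 0.9982. Arrays of the same replicate number correlated at 0.9973 to 0.9982. The arrays numbered replicate 3 stood apart from replicates 1 and 2 in all 3 treatments, at 0.9894 to 0.993. Pairs of replicate 1 with replicate 2 were not read apart, so whether same-numbered arrays were more alike than these was not tested. Of 14 B-lineage markers measured, 12 had a mean above 8, with DNTT, the DNA polymerase of immature lymphocytes, the highest at 13.1. VPREB1 and CD34 did not. No marker of the T and NK, myeloid, erythroid and platelet, or fibroblast and epithelial lists did so, and no marker of any of these lists was called in the comparison.

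Expression with both oligos was close to that with either one. In limma with the replicate number as a block, 6 of 19775 genes (0.0303%) passed a Benjamini-Hochberg adjusted p of 0.05, against the mean of the single oligos. The 5 that were higher with the combination were PPP3R1, the regulatory subunit of the calcium-dependent phosphatase calcineurin, ANPEP, the surface peptidase CD13, ANKRD37, a small ankyrin-repeat protein induced in low oxygen, POFUT4, a fucosyltransferase gene, and BHLHE40, a transcriptional repressor that is also induced in low oxygen. One zinc finger gene, ZNF765, was lower. At an unadjusted p under 0.05 there were 988 genes, or 5.00% of those tested. The differences were small, from 0.32 to 0.45 among the called rises, or 1.24 to 1.36 times. The fit gave nearly every gene the same spread (SE 0.0682 to 0.0691), so that a gene with a large value on 1 array can pass. Without combination replicate 1, 0 genes passed, and 510 had an unadjusted p under 0.05. The differences of the 5 higher genes were then 0.04 to 0.31, and that of ZNF765 was unchanged at -0.31. Without miR-100 replicate 1 there were also 0 calls, with 666 at an unadjusted p under 0.05, and without miR-100 replicate 2 there were 73. Without the 3 arrays of replicate 3, 32 genes passed, 31 of them higher, and 3 of the 6 were among them. Without the replicate block 0 genes passed, with 389 at an unadjusted p under 0.05. After cyclic loess normalization, which removes shifts that depend on the level, 0 genes passed too, with 1511 at an unadjusted p under 0.05, but the differences stayed near their deposited size: 0.48 for PPP3R1, 0.38 for ANPEP, 0.37 for ANKRD37, 0.36 for POFUT4, 0.35 for BHLHE40 and -0.28 for ZNF765.

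PPP3R1 stood at 8.27, 7.68 and 7.24 in replicates 1 to 3 of miR-99a, at 7.67, 7.79 and 7.82 with miR-100, and at 8.70, 8.21 and 7.67 with both. The combination was the highest array of its number in replicates 1 and 2, while in replicate 3 it lay between the single oligos. Its differences were thus 0.73, 0.48 and 0.14, with a mean of 0.45 ± 0.07 (SE of the fit, n = 3) and an adjusted p of 2.43e-06 in limma. Genes of the same level had a median of -0.027. A dimmer probe set of the gene had 0.48, 0.27 and -0.08, so both probe sets were higher in replicates 1 and 2, and 1 of them in replicate 3. The control arrays of PPP3R1 read 7.38 and 8.09. Without combination replicate 1 the difference was 0.31 and did not pass (adjusted p 1). The other 13 measured genes of the calcineurin and NFAT list, which holds the catalytic subunits, the RCAN inhibitors and the NFAT factors, did not pass, and the list's median was 0.017 beside -0.011 at the same level.

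ANPEP was above both single oligos in each replicate. The levels were 11.34, 11.91 and 11.05 with miR-99a, 11.33, 11.84 and 11.48 with miR-100, and 12.21, 12.02 and 11.53 with both. The ranges over replicates overlapped, with replicate 2 high in all 3 treatments. The differences were 0.88, 0.15 and 0.26 (mean 0.43 ± 0.07, SE, n = 3, adjusted p 4.43e-06). Genes of the level of ANPEP had 0.06, 0.16 and -0.06 in replicates 1, 2 and 3, and after cyclic loess its own differences were 0.83, -0.01 and 0.32. Without combination replicate 1 the mean was 0.21 (adjusted p 1). The other 2 probe sets of ANPEP were at 5.33 and 5.43, below the array medians of 5.95 to 5.984, and had -0.04 and -0.03.

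**Figure D1:**
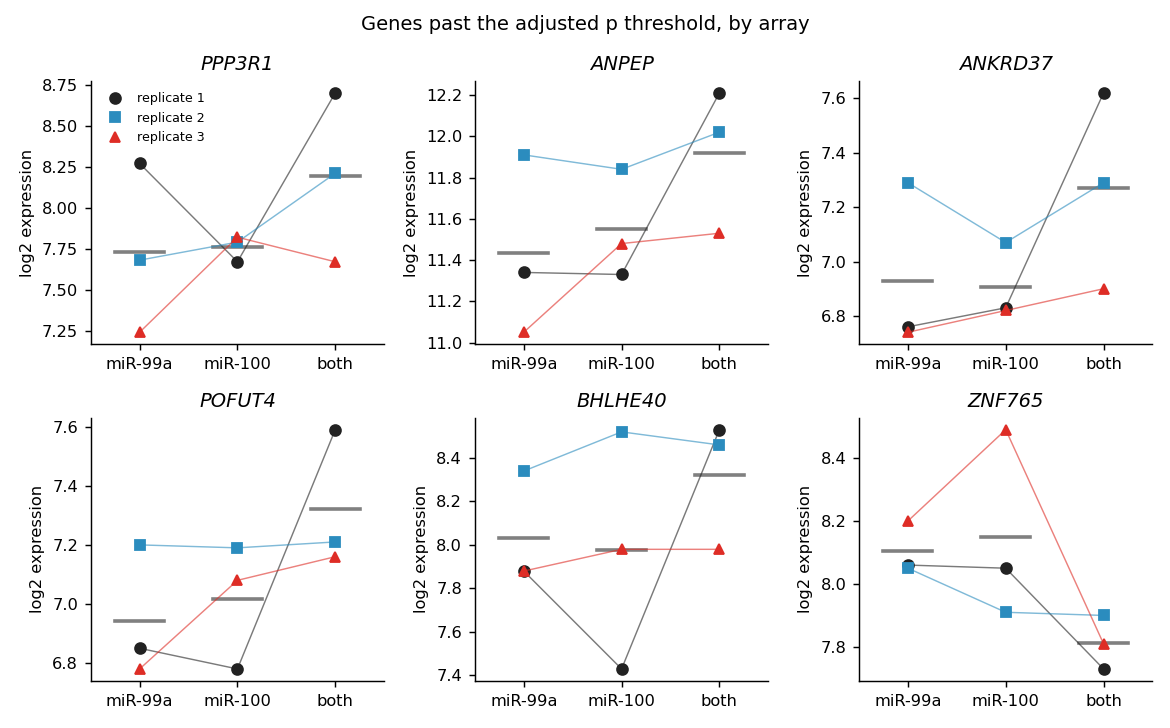
Log2 expression of the 6 genes that passed, with 1 point per array, lines joining arrays of one replicate number and grey bars at the group means. Each panel has its own y axis that does not start at 0. In ANKRD37, POFUT4 and BHLHE40 combination replicate 1 is far above the single-oligo arrays of its number, while the differences in replicates 2 and 3 are 0.02 to 0.23, and in ZNF765 all 3 combination arrays lie below all 6 others.

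ANKRD37, POFUT4 and BHLHE40 differed most in replicate 1. ANKRD37 read 6.76, 7.29 and 6.74 with miR-99a, 6.83, 7.07 and 6.82 with miR-100, and 7.62, 7.29 and 6.90 with both. POFUT4 read 6.85, 7.20 and 6.78, then 6.78, 7.19 and 7.08, then 7.59, 7.21 and 7.16 in the same order. For BHLHE40 the values were 7.88, 8.34 and 7.88 with miR-99a, 7.43, 8.52 and 7.98 with miR-100, and 8.53, 8.46 and 7.98 with both. In all 3 genes the single-oligo arrays of replicate 1 were low and those of replicate 2 high, and the combination was high in both, so the groups overlapped. The replicate differences were 0.82, 0.11 and 0.12 for ANKRD37, 0.77, 0.02 and 0.23 for POFUT4, and 0.87, 0.03 and 0.05 for BHLHE40. Genes of their level had -0.04, -0.04 and -0.07 in replicate 3, and after cyclic loess the replicate 3 differences of ANKRD37, POFUT4 and BHLHE40 were 0.17, 0.27 and 0.14, while those of replicate 2 were 0.10, 0.01 and 0.01. The means in the deposited values were 0.35, 0.34 and 0.32 (SE 0.07, n = 3, adjusted p 0.00226, 0.00429 and 0.0172). Without combination replicate 1 they were 0.12, 0.12 and 0.04, and none passed (adjusted p 1 each). The control arrays showed the same step between numbers for BHLHE40, with 7.59 in replicate 1 and 8.33 in replicate 2, and for POFUT4, with 6.76 and 7.20, but not for ANKRD37, with 7.03 in each. A dimmer probe set of POFUT4, at 5.72, had differences of 0.38, 0.03 and 0.16. The second probe set of ANKRD37, at 5.43, had -0.05, -0.01 and 0.12, and that of BHLHE40, at 5.58, had 0.02, 0.00 and -0.07. All of these dimmer probe sets lay below the array medians.

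Cells short of oxygen keep hypoxia-inducible factors, which are otherwise degraded after hydroxylation, and these switch on genes of glycolysis, blood vessel growth and mitochondrial turnover by binding near a short core sequence in DNA. ANKRD37 belongs to the list of glycolysis and hypoxia genes, and BHLHE40 and POFUT4 do not. Of the 34 members measured, 1 passed, 27 had a positive difference, and the median was 0.084, against -0.016 for genes of the same level and -0.002 for all genes. The list's medians were 0.170, 0.033 and 0.005 in replicates 1, 2 and 3, beside -0.003, 0.043 and -0.072 for genes of the same level, so the list was above its level in replicates 1 and 3 and slightly below it in replicate 2. The overall median was 0.047 after cyclic loess and 0.037 after quantile normalization. ADM, the vasodilator adrenomedullin, had 8.11, 8.59 and 8.14 with miR-99a, 8.0, 8.57 and 8.44 with miR-100, and 8.75, 8.60 and 8.38 with both. Its differences of 0.70, 0.02 and 0.09 were again largest in replicate 1, and it missed the threshold (0.27 ± 0.07, SE, n = 3, adjusted p 0.0823). ADM and the genes named next were chosen after their values were seen. VEGFA, the growth factor for blood vessels, had 0.51, 0.07 and 0.05, the histone demethylase KDM3A 0.40, 0.09 and -0.01, and PFKFB3, which makes an activator of glycolysis, 0.44, -0.02 and 0.05. BNIP3, a mitophagy receptor, had 0.22, 0.03 and -0.05, and EGLN3, an oxygen-sensing hydroxylase that is itself induced in low oxygen, had -0.08, -0.01 and 0.02. MIR210HG, the host of a microRNA induced in low oxygen, had 0.27, 0.00 and 0.27. Dimmer probe sets of VEGFA did not repeat its large difference in replicate 1. The one at 7.54 had 0.05, 0.15 and 0.09, and the others had means of 0.02 and 0.04. A second probe set of MIR210HG, at 6.23, had 0.70, -0.17 and 0.18. After cyclic loess the replicate 3 differences were 0.18 for ADM, 0.15 for VEGFA, 0.10 for KDM3A and 0.14 for PFKFB3. They were 0.06 for BNIP3, 0.00 for EGLN3 and 0.27 for MIR210HG. In the same order, those of replicate 2 were -0.01, 0.00, 0.05, -0.04, -0.04, 0.00 and 0.01. Oxygen in the cultures was not among the values used here.

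**Figure D2:**
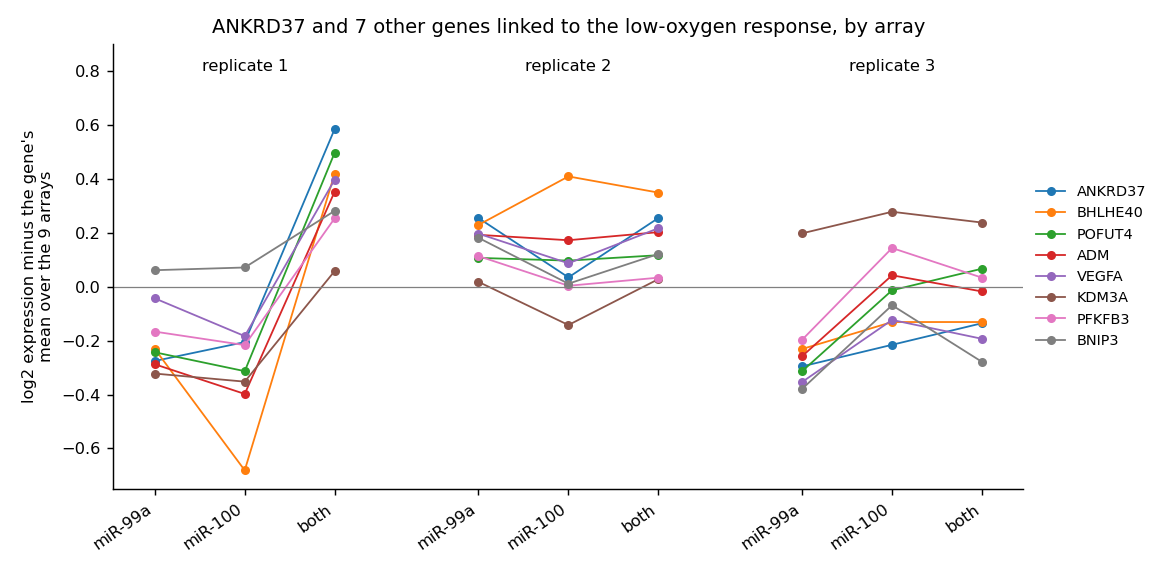
Log2 expression of 8 genes minus each gene's mean over the 9 treated arrays, grouped by replicate number, with lines joining the 3 arrays of a number. The 8 genes were called or chosen after their values were seen. In replicate 1 the combination array is the highest for each of them, and in replicates 2 and 3 it lies nearer to the single-oligo arrays. Of genes not plotted, MIR210HG also had the combination highest in replicate 1, and EGLN3 did not (5.84, beside 6.03 with miR-99a).

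ANPEP, also called, likewise had its largest difference in replicate 1 (0.88), and its single-oligo arrays were lower in replicate 1 than in replicate 2. Promoters are printed for ANKRD37, BHLHE40 and POFUT4 only, a choice made after the values were seen. They are RefSeq's (GRCh38.p14), 250 bases before to 50 after the start, 5′ to 3′ along the gene. Capitals mark ACGTG, one form of the core bound by hypoxia-inducible factors, on either strand, where CACGTG counts once on each strand.

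ANKRD37, chr4:185396591-185396890, plus strand: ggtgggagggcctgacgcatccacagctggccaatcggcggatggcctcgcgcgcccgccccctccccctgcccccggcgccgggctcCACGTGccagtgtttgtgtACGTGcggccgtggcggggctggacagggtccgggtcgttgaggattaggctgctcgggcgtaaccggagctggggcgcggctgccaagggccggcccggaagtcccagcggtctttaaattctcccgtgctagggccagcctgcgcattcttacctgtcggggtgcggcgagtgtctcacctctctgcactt
BHLHE40, chr3:4979187-4979486, plus strand: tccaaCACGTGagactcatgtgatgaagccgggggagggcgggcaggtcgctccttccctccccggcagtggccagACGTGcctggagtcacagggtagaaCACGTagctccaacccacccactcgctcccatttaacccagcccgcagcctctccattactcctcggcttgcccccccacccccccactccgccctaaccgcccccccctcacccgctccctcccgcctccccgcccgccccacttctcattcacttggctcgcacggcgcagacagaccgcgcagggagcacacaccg
POFUT4, chr10:73772026-73772325, plus strand: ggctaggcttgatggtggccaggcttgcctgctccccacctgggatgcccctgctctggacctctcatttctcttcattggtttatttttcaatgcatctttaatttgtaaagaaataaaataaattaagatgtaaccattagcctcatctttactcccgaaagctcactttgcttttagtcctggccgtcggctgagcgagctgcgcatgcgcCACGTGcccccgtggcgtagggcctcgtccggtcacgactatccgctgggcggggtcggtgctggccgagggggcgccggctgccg

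The motif ACGTG was present 3 times in the window of ANKRD37, 4 times in that of BHLHE40 and 2 times in that of POFUT4. It was present in 3711 of 15384 promoters of genes on the array, or 24.1%. PPP3R1 and MIR210HG had 1 match each, and ANPEP and ADM none. ADM had 1 match of the other form, GCGTG, which 44.3% of the promoters hold. The longer CACGTG is also an E-box, the element bound by MYC and by BHLHE40 itself, so a match does not point to one factor. No binding was measured.

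ZNF765 was the 1 called gene that was lower with the combination, and the 1 whose groups did not overlap. It stood at 8.06, 8.05 and 8.20 with miR-99a, at 8.05, 7.91 and 8.49 with miR-100, and at 7.73, 7.90 and 7.81 with both. The control arrays, at 8.25 and 8.17, also lay above the 3 combination arrays. The differences were -0.32, -0.09 and -0.53 (mean -0.31 ± 0.07, SE, n = 3, adjusted p 0.0172). All 3 combination arrays were below all 6 single-oligo arrays in 121 genes (0.612%), and above them in 194 (0.981%). A second probe set of nearly the same level had -0.22, -0.02 and -0.13, and genes of this zinc finger family have similar sequences. Without combination replicate 1 the mean of ZNF765 was unchanged at -0.31, yet it did not pass (adjusted p 1).

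Set against each single oligo in the same fit, the combination differed in 5 genes from miR-99a (0.0253%) and in 3 from miR-100 (0.0152%), with a median SE of 0.079. These comparisons share the combination arrays. PPP3R1 passed in both, with 0.46 against miR-99a and 0.43 against miR-100 (SE 0.08, adjusted p 8.91e-05 and 0.00122), and so did ANPEP, with 0.49 and 0.37 (adjusted p 1.92e-05 and 0.0258). POFUT4 passed against miR-99a (0.37 ± 0.08, SE, adjusted p 0.0127) and had 0.30 ± 0.08 against miR-100 (adjusted p 0.337). For ANKRD37 it was the other way round, with 0.36 ± 0.08 against miR-100 (adjusted p 0.0365) and 0.34 ± 0.08 against miR-99a (adjusted p 0.0575), values that differ by less than their errors. Without combination replicate 1 no gene passed in either comparison, with 481 and 404 genes at an unadjusted p under 0.05. The comparison with miR-99a had 23 calls without miR-100 replicate 2 and 0 without miR-100 replicate 3, and that with miR-100 had 21 without miR-100 replicate 2 and 0 without miR-100 replicate 1.

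The remaining calls against miR-99a were FOLR1 and ATP8B1. FOLR1, the alpha folate receptor, read 10.06, 9.92 and 8.77 with miR-99a, 9.33, 9.20 and 8.94 with miR-100, and 9.52, 9.10 and 8.93 with both. The miR-99a arrays of replicates 1 and 2 were thus the high ones, and in replicate 3 the miR-99a array was the lowest. The log2 difference of FOLR1 was -0.40 ± 0.08 for the combination against miR-99a (SE, adjusted p 0.00294) and 0.02 ± 0.08 against miR-100 (adjusted p 1). For miR-100 against miR-99a it was -0.43 ± 0.08 (adjusted p 0.00188). A dimmer probe set of FOLR1 lay at 5.64, below the array medians. It read 5.62, 5.57 and 5.51 with miR-99a, 5.67, 5.85 and 5.66 with miR-100, and 5.68, 5.54 and 5.64 with both. This probe set was thus not lower with miR-100 than with miR-99a in any replicate. ATP8B1, a phospholipid-transporting ATPase of the plasma membrane, read 7.80, 7.85 and 8.35 with miR-99a, 8.09, 8.15 and 8.46 with miR-100, and 8.25, 8.22 and 8.62 with both. The order was the same in each replicate, with miR-99a lowest and the combination highest. Its difference was 0.36 ± 0.08 from miR-99a (adjusted p 0.0195) and 0.13 ± 0.08 from miR-100 (adjusted p 1).

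Between the single oligos, 2 genes differed (0.0101%), both lower with miR-100: FOLR1 and ND6, a subunit of respiratory complex I encoded in mitochondrial DNA. ND6 had 9.97, 9.91 and 9.82 with miR-99a and 9.59, 9.57 and 9.38 with miR-100, a difference of -0.39 ± 0.08 (SE, n = 3, adjusted p 0.00886). With both oligos it had 9.72, 9.77 and 9.30, between the single oligos in replicates 1 and 2 and below both in replicate 3. The single oligos differed from each other in 311 genes at an unadjusted p under 0.05, or 1.57%, against 671 and 931 for the combination against miR-100 and against miR-99a (3.39% and 4.71%). Whether these shares differ was not tested. The calls on ND6 and FOLR1 ended without either single-oligo array of replicate 1, without the miR-100 array of replicate 3, and without all arrays of replicate 1 or of replicate 2. Of these 2 genes, 1 passed without the miR-99a array of replicate 2 or of replicate 3, without the miR-100 array of replicate 2, and without all arrays of replicate 3.

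Several genes that did not pass had more even differences than those that did. SIX3, a homeobox gene, had 5.23, 5.15 and 5.20 with miR-99a, 5.27, 5.22 and 5.15 with miR-100, and 5.58, 5.51 and 5.38 with both, so the groups did not overlap. Its differences were 0.33, 0.32 and 0.21 (mean 0.29 ± 0.07, SE, n = 3, adjusted p 0.0594). The level was below the array medians, and the other 2 SIX3 probe sets had means of 0.01 and 0.17. The zinc finger gene ZNF793 had 6.74, 6.74 and 6.69 with both oligos and 6.33 to 6.55 in the single-oligo arrays, with control at 6.45 and 6.73. Among the lowest p-values downward, PPFIBP1, which encodes a liprin of cell adhesion sites, had 7.07, 7.11 and 6.99 with both and 7.12 to 7.44 with single oligos, again with no overlap. Over all genes, 194 (0.981%) lay higher and 121 (0.612%) lower without overlap. UTP15, a factor of small ribosomal subunit assembly, had differences of -0.22, -0.25 and -0.36. The DNA helicase gene RECQL had -0.35, -0.18 and -0.29, and ABCD3, a transporter of fatty acids into peroxisomes, had -0.41, -0.15 and -0.28 (adjusted p 0.072). EMP1, a small membrane protein gene, had -0.43, -0.37 and -0.07 (adjusted p 0.0594). The kinase gene DSTYK had -0.53, -0.07 and -0.26, and PIGW, which acts in the synthesis of GPI anchors, had -0.38, -0.18 and -0.23. Other probe sets of these genes moved less. A second one of ABCD3, at 7.93 beside 8.15, had -0.03, 0.03 and -0.01. The others of PPFIBP1 had means of -0.04 to 0.04, those of DSTYK -0.02 to 0.06 and those of EMP1 -0.11 to 0.05. Those of RECQL were also lower, at -0.16 to -0.10, as was that of UTP15, at -0.09. No gene differed by over 0.5 in each of the 3 replicates. Differences of that size occurred in 9 genes in replicate 1, 1 in replicate 2 and 2 in replicate 3.

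Among bright genes, the difference between the combination and the single oligos followed the level of expression. Among the 95 genes with a mean of 13 or more, all 95 had a positive mean difference and 80 were positive in each replicate, with medians of 0.236, 0.303 and 0.056 in replicates 1, 2 and 3. The median of these genes was 13.84, 13.87 and 13.54 on the combination arrays, against 13.64, 13.60 and 13.47 with miR-99a, 13.69, 13.62 and 13.42 with miR-100, and 13.56 and 13.64 in control. Medians fell off with the level, from 0.196 at 13 or more to 0.108 at 12 to 13 and 0.04 at 11 to 12, and were -0.027 at 8 to 10. After cyclic loess normalization the median at 13 or more was 0.061, and after quantile normalization it was -0.002, with the sign turned. Which scaling is nearer to the cells' RNA was not tested.

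**Figure D3:**
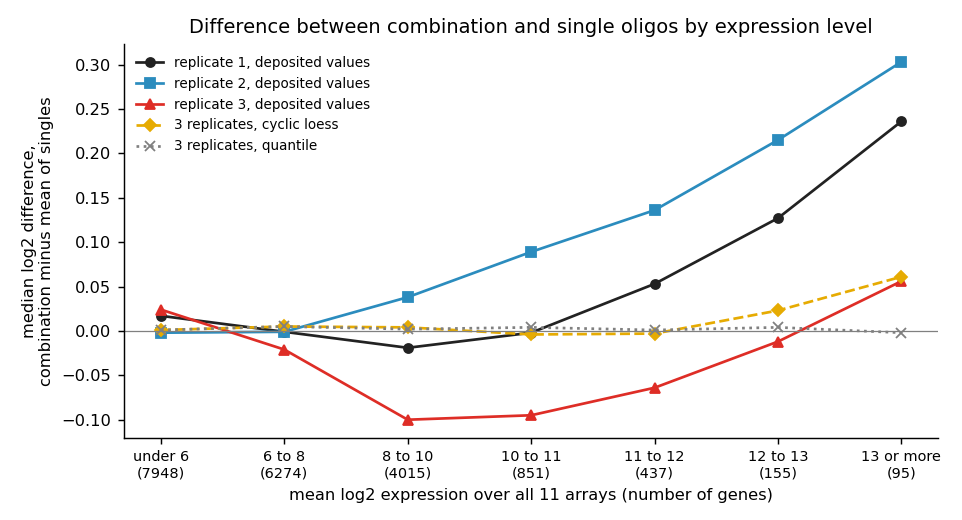
Median log2 difference between the combination and the mean of the single oligos (y axis) for genes grouped by their mean log2 expression over all 11 arrays (x axis, with the number of genes), per replicate in the deposited values and over replicates after cyclic loess or quantile normalization. In the deposited values the median is 0.236, 0.303 and 0.056 in the brightest group, and the quantile line stays within 0.01 of 0.

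Cytoplasmic ribosomal protein genes, which encode the protein part of the ribosome and are among the brightest on the array, had the largest median of the 38 lists. In the deposited values 50 of 52 had a positive difference, none passed, and the median was 0.221, with 0.282, 0.309 and 0.074 by replicate. The count of calls depended on single arrays: of the ribosomal protein genes at 13 or more, 17 passed without miR-100 replicate 2, 15 without miR-99a replicate 3, 10 without combination replicate 3 and 18 without all of replicate 3, and 0 in each of the other fits without an array or replicate number. Genes of the same level had 0.194, but the list's own genes are among them, so this median is not independent of the list. Among genes of 13 or more, the 46 ribosomal protein genes had 0.226 and the 49 others 0.177. These medians were 0.082 and 0.04 after cyclic loess, and 0.008 and -0.014 after quantile normalization. RPL31 was the nearest to the threshold, at 14.63, 14.58 and 14.02 with both, 14.19, 14.19 and 13.96 with miR-99a, and 14.26, 14.25 and 13.88 with miR-100 (0.29 ± 0.07, SE, n = 3, adjusted p 0.0594). RPL37A, RPL32 and RPS27 had replicate differences of 0.31 to 0.41 in replicates 1 and 2 and of 0.09 to 0.10 in replicate 3. Of other bright genes, the elongation factor EEF1A1 had 0.27, 0.34 and 0.05, the initiation factor EIF1 0.34, 0.34 and 0.07, and the glycolytic enzyme GAPDH, chosen after its values were seen, 0.29, 0.29 and 0.09. ZFAS1, a noncoding host of small nucleolar RNAs, had 0.41, 0.26 and 0.15 (adjusted p 0.074), and its list of 8 genes had a median of 0.074 beside 0.018 at the same level.

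Of the 38 lists, 36 had no called member, and most medians were close to those of genes of the same level. Oxidative phosphorylation genes, which build the respiratory chain, had 0.065 beside 0.043, with 51 of 68 positive. That count was near the 315 of 437 for all genes at 11 to 12, where the list's median level lay. ATP5F1E, a subunit of ATP synthase, had 0.31, 0.28 and 0.06, and COX6A1, of cytochrome oxidase, had 0.28, 0.27 and 0.08. Both are brighter than most of the list, and genes of their level had medians of 0.127 and 0.113. The AP-1 and immediate early genes, transcription factors and phosphatases that respond to signalling, had 0.064 beside 0.002, and 23 of 29 were positive. Their median was also 0.064 after cyclic loess. DUSP1, a phosphatase of MAP kinases, had 12.96, 12.95 and 12.75 with both, 12.74, 12.72 and 12.61 with miR-99a, and 12.60, 12.70 and 12.71 with miR-100. The combination was above both single oligos in each replicate (0.21 ± 0.07, SE, n = 3, adjusted p 0.462), and genes of the level of DUSP1 had 0.125. JDP2, an AP-1 repressor, had 0.19, 0.15 and 0.10 beside -0.025 at its level. Cholesterol synthesis genes had 0.046 beside -0.014 (15 of 23 positive), with the desaturase FADS2 at 0.26, 0.14 and 0.13 and the sterol sensor INSIG1 at 0.17, 0.25 and 0.10. Genes of the same level had -0.029 for FADS2 and 0.115 for INSIG1, and after cyclic loess these genes had 0.21 and 0.08. None of these genes passed.

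DNA replication genes lay on the other side. These genes, of the origin, helicase and polymerase complexes, were negative in 37 of 45 cases, with a median of -0.062 beside -0.016 at the same level, and of -0.059, 0.019 and -0.140 in replicates 1, 2 and 3. After cyclic loess the median was -0.035, and after quantile normalization -0.033. CDC6, which loads the helicase at origins, had 7.81, 8.10 and 8.34 with both, 8.05, 8.26 and 8.58 with miR-99a, and 8.07, 8.07 and 8.61 with miR-100. It was below both single oligos in replicates 1 and 3 and between them in replicate 2 (-0.19 ± 0.07, SE, n = 3). RPA2, a single-strand binding protein gene, had -0.30, -0.05 and -0.17. Mitotic genes had a median of -0.045 beside -0.019, with 33 of 50 negative, ANLN at -0.24, 0.03 and -0.20 and CCNB1, mitotic cyclin B, at -0.29, -0.03 and -0.09. Of all 4015 genes at 8 to 10, where the median levels of both lists lay, only 1297 were positive, so the mitotic count was near that of its level. Set against genes of the same level, 35 of the 45 DNA replication genes and 31 of the 50 mitotic genes were lower. The G1 cell cycle list was evenly split, with 11 positive and 12 negative and a median of -0.023 beside -0.014. Its lowest p was that of CCNE2, a cyclin of the step into S phase, which had 9.76, 9.78 and 9.39 with both, 10.07, 9.96 and 9.66 with miR-99a, and 10.07, 9.78 and 9.64 with miR-100 (-0.22 ± 0.07, SE, n = 3, adjusted p 0.351). None of these passed either, and in replicate 2 the DNA replication and mitosis medians were 0.019 and 0.051, beside 0.044 and 0.050 for genes of their level.

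**Figure D4:**
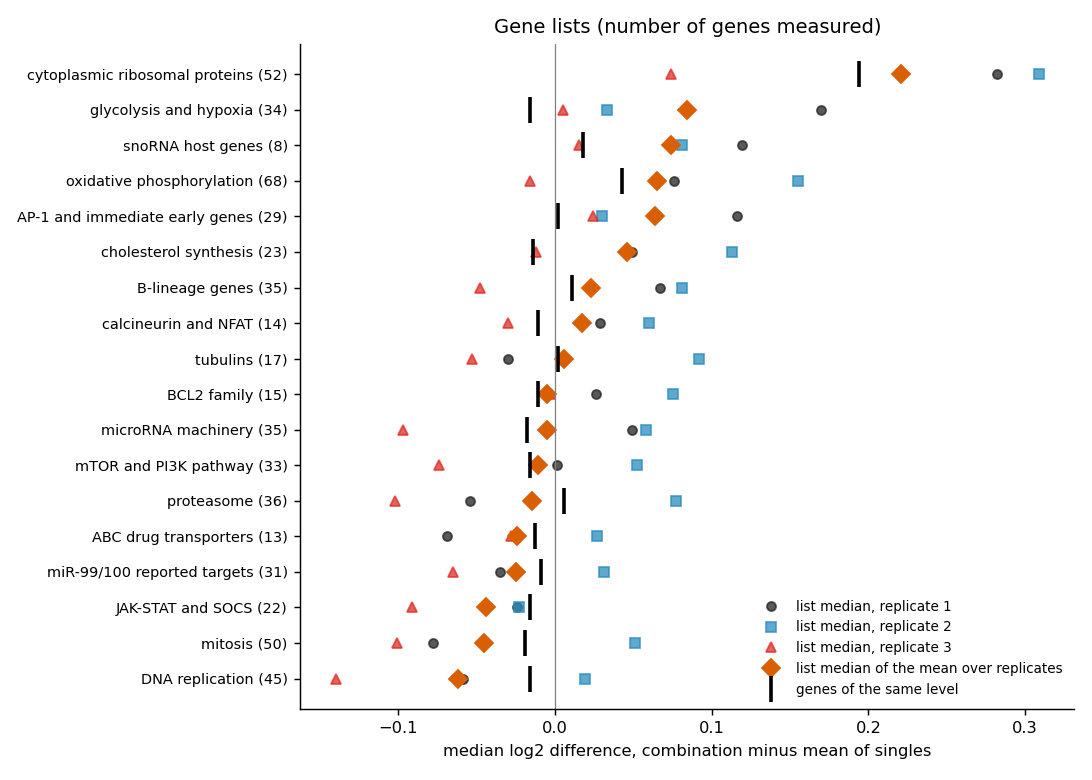
Median log2 difference between the combination and the mean of the single oligos for 18 of the 38 lists, by replicate (circle, square and triangle) and for the mean over replicates (diamond), beside the median of genes of the same level (vertical tick). Cytoplasmic ribosomal proteins are at 0.221 beside a tick at 0.194, glycolysis and hypoxia genes at 0.084 beside -0.016, and DNA replication genes at -0.062 beside -0.016. The genes of the same level include a list's own members, among them many bright ribosomal protein genes.

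Genes reported as targets of the miR-99 family received the same seed at the same total amount in the 3 treatments. Of 31 measured, none passed, 20 had a negative difference, and the median was -0.025 beside -0.009 at the same level, with -0.035, 0.031 and -0.065 in replicates 1, 2 and 3. Of all 6274 genes at 6 to 8, where the list's median level lay, 2743 were positive. MTOR had 6.86, 6.89 and 7.25 with miR-99a, 6.87, 6.88 and 7.36 with miR-100, and 6.89, 6.92 and 7.17 with both. In each replicate the 3 treatments were close together, and replicate 3 was high in each of them. The difference in MTOR was -0.03 ± 0.07 (SE, n = 3) with a 95% interval of -0.16 to 0.11, which leaves room for small differences in either direction. The intervals rest on the spread pooled over genes and not on each gene's own 3 differences. RPTOR had -0.01 (interval -0.14 to 0.12), FKBP5, which binds the steroid receptor complex, -0.02 (-0.15 to 0.12), and IGF1R 0.03 (-0.10 to 0.17). By replicate, IGF1R had 0.26, 0.02 and -0.19. The chromatin remodellers SMARCA5, BAZ2A and SMARCD1 had -0.08, 0.00 and -0.05, the receptor BMPR2 -0.02, the phosphatase CTDSPL -0.05, and AGO2, the Argonaute that cleaves targets, 0.04. TRIB2, a pseudokinase gene at 5.20 to 5.56 and so below the array medians, had -0.32, 0.02 and -0.02. The lowest p-values of the list were those of KBTBD8, an adaptor of a ubiquitin ligase, with -0.11, 0.02 and -0.37, and ICMT, a methyltransferase of prenylated proteins. ICMT had 8.70, 8.75 and 8.85 with both, 8.95, 8.99 and 8.83 with miR-99a, and 8.84, 8.73 and 9.08 with miR-100, a difference of -0.14 ± 0.07 (SE, n = 3, adjusted p 0.989).

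No gene of the related lists passed. In the mTOR and PI3K pathway, through which growth factors control protein synthesis, the median of 33 genes was -0.011 beside -0.016. MAPKAP1, the SIN1 subunit of mTOR complex 2, had 7.54, 7.65 and 7.60 with both, against 7.70 to 7.86 in the single-oligo arrays, with no overlap (-0.18 ± 0.07, SE, n = 3, adjusted p 0.707). Over all genes, 121 (0.612%) lay lower without overlap. The other probe sets of MAPKAP1 had means of -0.04 to -0.03. TSC2, an inhibitor of the pathway, had 0.14, 0.16 and 0.01. Reported miR-125b targets, whose microRNA was expressed in all cells, had a median of -0.009 over 27 genes, and the microRNA machinery -0.005 over 35. The microRNA host genes MIR99AHG and MIR100HG had 0.05 and -0.03, with MIR100HG at 4.70 to 4.95 and so near the lowest values of the arrays.

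None of the genes linked to vincristine, a tubulin-binding drug that ABC transporters pump out of cells, passed. ABCB1, the gene of P-glycoprotein, had 6.84, 6.42 and 6.67 with both, 6.60, 6.57 and 6.69 with miR-99a, and 6.63, 6.74 and 6.63 with miR-100. Its differences of 0.22, -0.23 and 0.01 gave a mean of 0.00 with a 95% interval of -0.14 to 0.13. The transporter genes ABCC1 and ABCB4 had 0.03 and 0.08. TUBA1B, an alpha-tubulin gene, had 13.82, 13.93 and 13.79 with both, 13.64, 13.66 and 13.80 with miR-99a, and 13.69, 13.67 and 13.67 with miR-100 (0.15 ± 0.07, SE, n = 3, adjusted p 0.875). This bright gene lay in the range where genes of all kinds had 0.196. TUBB, a beta-tubulin gene, had 0.08, and STMN1, whose product destabilises microtubules, -0.02. Of the survival genes, BCL2 had 0.16, 0.21 and 0.04 and MCL1 -0.04, 0.08 and -0.13. Dimmer probe sets of BCL2 had means of -0.03 to 0.10, and those of MCL1 -0.20 to 0.09. The brightest of these MCL1 probe sets, at 8.30, had -0.28, -0.07 and -0.27. Neither the 13 ABC transporters nor the 17 tubulins held a called gene, and their medians were -0.024 and 0.006. Among the transporters, ABCC4 had -0.15, 0.00 and -0.15. A dimmer probe set of ABCC4, at 6.43 and not part of the fit, had -0.32, -0.24 and -0.37. Its remaining probe sets had means of -0.12 and 0.07.

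**Figure D5:**
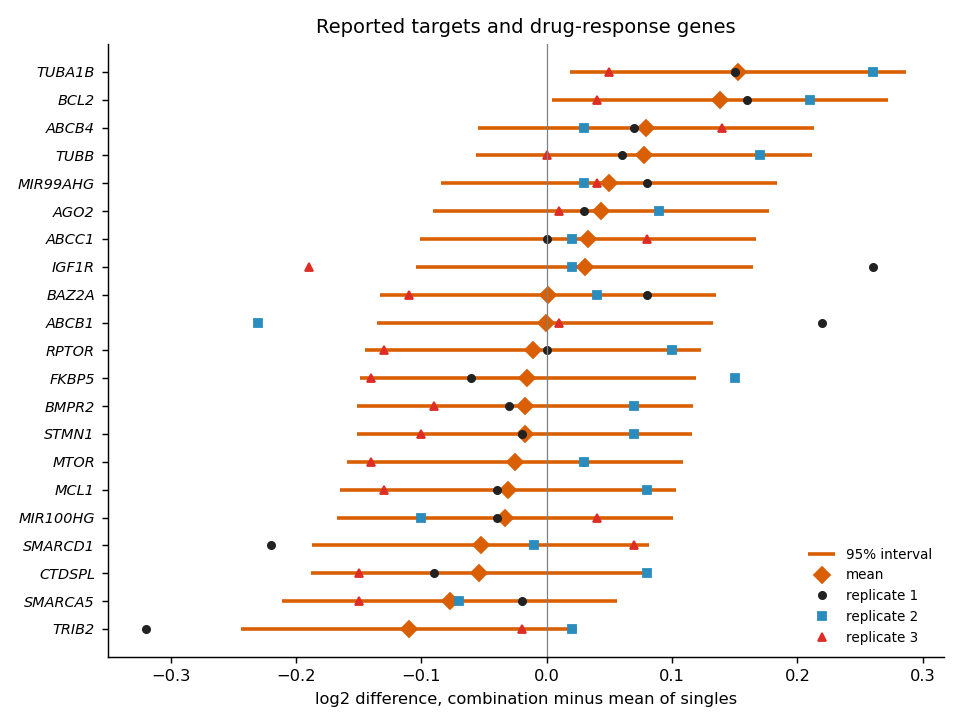
Log2 difference between the combination and the mean of the single oligos (x axis) for 21 genes reported as targets or linked to vincristine, with the 3 replicates as points, the mean as a diamond and the 95% interval of the limma fit as a bar. The means lie between -0.11 for TRIB2 and 0.15 for TUBA1B.

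The arrays were also ranked within each replicate, without a model. The combination array was above both single-oligo arrays in each of the 3 replicates in 717 genes (3.63%) and below both in 619 (3.13%). Of the 95 genes at 13 or more, 47 were among the 717. MiR-99a was the highest of the 3 in each replicate in 484 genes and the lowest in 521, and miR-100 in 318 and 412. These counts rest on the same arrays as the tests above. After cyclic loess normalization the combination was highest in 1069 genes and lowest in 991, miR-99a in 569 and 851, and miR-100 in 695 and 531. Across all genes, the combination's difference in one replicate was weakly related to that in another, with correlations of 0.089 between replicates 1 and 2, 0.138 between 1 and 3 and -0.101 between 2 and 3. These are descriptions across 19775 genes, which share probe chemistry and scaling and are not independent.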

How the data were processed

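RNA of Reh cells was hybridized to Affymetrix whole-genome expression arrays after one-cycle labelling, per the labels' protocols. The authors deposited log2 values, recognised from their range of 4.398 to 14.839; how probe sets were summarised and normalized is not stated in the labels used here. Array medians were 5.95 to 5.984. Of 54675 probe sets, 41091 with a single gene symbol were kept, and for each of 19775 genes the probe set of highest mean (11 arrays) was used. No filter on dim genes was applied. Names are from the platform annotation.

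The 9 treated arrays were fitted with limma 3.58.1 (R 4.3.3), with a mean per treatment and the replicate number as a block, and p-values were adjusted by Benjamini-Hochberg over all genes; all tests are 2-sided. The number was accepted as a pairing by a check of correlations after group means were removed. Same-numbered arrays of different treatments then correlated in all 9 pairs (r 0.168 to 0.816, minimum 0.1). Replicate 3 stood apart in each treatment, so removing group means leaves replicates 1 and 2 with a shared shift, whatever their numbering. The check therefore cannot show that replicates 1 and 2 are paired by number, and differently numbered arrays were not set beside them in it. The prior had 1812 degrees of freedom against 4 residual ones. The level of comparison was the median of the 101 genes nearest in mean expression, with the gene itself and members of its list left in. The number of arrays limits the precision.

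The genes, the 38 lists and the comparison were chosen with earlier results of these data known. Genes were named by a rule: called genes on one side in all replicates, then the smallest p up to 12 per direction, a fixed set of targets and drug-response genes, and the called members or 2 smallest p-values of each list described. Alternatives were 11 other settings and 12 fits with arrays left out. The fit was tested on simulated data.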

Additional observations from a re-analysis of the deposited data

How the results depend on the processing

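The calls depended on the model and the scaling. For the combination against both single oligos averaged (6 genes), against miR-99a (5), against miR-100 (3), and for miR-100 against miR-99a (2), no gene passed without a replicate block, with replicate 3 as the only term in its place, with the replicate number as a random effect, with all 11 arrays and no replicate block, after quantile or cyclic loess normalization, or with the mean of all probe sets of a gene, 0 in each. In those settings 389, 935, 695, 451, 1523, 1511 and 997 genes had an unadjusted p under 0.05 in the first comparison. After cyclic loess the differences of the 6 genes were 0.35 to 0.48 and -0.28, against 0.32 to 0.45 and -0.31 in the deposited values. All 11 arrays with the replicate block gave 1, 1, 0 and 1 calls, limma on the 3 paired differences alone 30, 1, 1 and 2, and a trended robust prior 8, 3, 1 and 0, of which 4, 2 and 1 were among the calls of the first 3 comparisons. With dim genes (below the median level) left out the counts were 6, 5, 2 and 2. Leaving out 1 array or 1 replicate number gave 0 to 73, 0 to 23, 0 to 21 and 0 to 2 calls. The first comparison had 73 without miR-100 replicate 2, 32 without miR-99a replicate 3, 19 without combination replicate 3, 12 without replicate 2, 3 without miR-100 replicate 3, and 2 without the miR-99a array of replicate 1. It had 0 without the combination array or the miR-100 array of replicate 1, or without all 3 arrays of that number (510, 666 and 293 at an unadjusted p under 0.05). The cause was not tested. No named gene changed direction while called; 859 list medians under these settings moved by less than the spread between replicates and 15 by more.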
